A study of Mus musculus with 2 samples.

Results

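The genes described here are Id1, Id2, Id3 and Id4, the complete Id family of the mouse, in cultured embryonic ureters with and without NOGGIN. They were chosen as the gene probes whose accession in the scanner files maps to 1 of the 4 symbols. This gave 4 probes, 1 for each gene, of 39429 probes on the array, and each probe was printed in 4 spots per array. The 4 genes are thus 4 of 21337 genes that passed the filter on dim probes and were tested. The NOGGIN group consists of ureters from wildtype NMRI mouse embryos of mixed sex, dissected at E12.5 and grown on transwell membranes for 18 h in medium with NOGGIN at 10 µg/ml. The control group has the same strain, stage and culture time in medium to which no NOGGIN was added. Each of 2 Agilent arrays, replicates 1 and 2, carried 1 NOGGIN-labelled and 1 control-labelled sample in different dyes, and the dyes were exchanged between the arrays. NOGGIN is added protein that reaches the whole explant, and the labels do not say how many ureters entered a culture or whether the replicates came from separate litters, so the spread between replicates may be technical.

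ID proteins have a helix-loop-helix domain but lack the basic region that contacts DNA. They pair with E proteins and with other basic helix-loop-helix (bHLH) factors and hold them off DNA, which keeps many cell types from differentiating. Their genes are direct targets of bone morphogenetic protein (BMP) signalling: activated receptors phosphorylate SMAD1, SMAD5 and SMAD9, which enter the nucleus with SMAD4 and bind Id promoters and enhancers. NOGGIN binds BMPs outside the cell, and in the ureter the main BMP is BMP4 of the mesenchyme.

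The sequences just upstream of the Id genes are shown because the SMAD and bHLH factors discussed here act on DNA near these genes. The RefSeq promoter table of GRCm38.p6 held 3 of the 4 members, namely Id2 at chr12:25096093-25096342 on the minus strand, Id3 at chr4:136143572-136143821 on the plus strand and Id4 at chr13:48260866-48261115 on the plus strand. Each is the 250 bases before the annotated gene start, 5′ to 3′ on the strand of the gene. Capitals mark GGCGCC, a GC-rich SMAD-binding motif, and CANNTG, the E-box bound by bHLH factors.
Id2: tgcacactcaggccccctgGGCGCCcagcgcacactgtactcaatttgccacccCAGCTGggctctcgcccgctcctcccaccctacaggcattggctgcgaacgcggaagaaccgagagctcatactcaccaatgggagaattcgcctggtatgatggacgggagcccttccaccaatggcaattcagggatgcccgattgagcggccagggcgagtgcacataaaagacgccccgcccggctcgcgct
Id3: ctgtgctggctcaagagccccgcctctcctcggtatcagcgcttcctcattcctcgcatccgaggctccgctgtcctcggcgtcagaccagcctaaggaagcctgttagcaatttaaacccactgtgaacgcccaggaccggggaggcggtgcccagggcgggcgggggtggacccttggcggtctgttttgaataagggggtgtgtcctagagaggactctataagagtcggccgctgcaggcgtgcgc
Id4: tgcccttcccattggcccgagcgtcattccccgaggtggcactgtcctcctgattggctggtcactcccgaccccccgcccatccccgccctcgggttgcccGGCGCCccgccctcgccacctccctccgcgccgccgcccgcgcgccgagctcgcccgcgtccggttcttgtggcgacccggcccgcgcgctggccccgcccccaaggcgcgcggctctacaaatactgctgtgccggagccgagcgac

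GGCGCC occurred once upstream of Id2, starting at position -231 from the gene start, and once upstream of Id4, at -148. It was not found in this window of Id3. Over all 32851 upstream windows of the same length in the table, 9.59% held it. Id3 had the SMAD box CAGAC at 2 positions, -167 and -68, where the windows of Id2 and Id4 had 0, and 11.7% of all windows had 2 or more. GGAGCC, another GC-rich SMAD motif, was found once in each of the 3 windows and in 26% of all windows. The E-box CANNTG was found once, upstream of Id2 at -196, and in 66.2% of all windows. CCAAT was found 3 times for Id2, 2 times for Id4 and 0 times for Id3, and 33.8% of all windows held at least 1. TATAA was found only for Id3, at -29, and in 22.8% of all windows. All motifs were searched on both strands, and no match overlapped another in these windows. The GC content was 62.8% for Id2, 62.8% for Id3 and 75.6% for Id4, against a median of 52.4% over all windows. A match is a description of the letters only.

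The signals of the Id probes, before any normalisation, were far above background in both channels, and all 32 spots on the 2 arrays were well above background with 0 saturated. Signals are given in scanner units minus the local background, as the median of the 4 spots with their range. Id1 had 8475 (7911 to 9587) in the NOGGIN-labelled and 4456 (4292 to 5008) in the control-labelled channel of replicate 1. On replicate 2 it had 14321 (13865 to 16576) in the NOGGIN-labelled and 1822 (1767 to 2025) in the control-labelled channel. The gap was wider on replicate 2, where the NOGGIN-labelled sample carried the red dye.

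Id2 had 73501 (66012 to 83843) in the NOGGIN-labelled and 32038 (29205 to 36388) in the control-labelled channel of replicate 1. On replicate 2 the values were 126743 (112841 to 135232) in the NOGGIN-labelled and 7717 (7007 to 8665) in the control-labelled channel. Its control-labelled signal on replicate 2 was the lowest of its 4 channel medians.

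Id3 had 106933 (98452 to 111650) in the NOGGIN-labelled and 90909 (81940 to 97394) in the control-labelled channel of replicate 1. The ranges of the channels did not overlap there, but lay close. On replicate 2 it had 171360 (159727 to 181174) in the NOGGIN-labelled and 31742 (29841 to 34347) in the control-labelled channel. Its brightest spot reached 23.3% of the scanner's saturation value. Whether its ratio was compressed in another way was not tested.

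Id4 had 25931 (24057 to 27107) in the NOGGIN-labelled and 14333 (13740 to 15689) in the control-labelled channel of replicate 1. On replicate 2 it had 40426 (39977 to 44263) in the NOGGIN-labelled and 5437 (5198 to 5829) in the control-labelled channel. For each of the 4 genes, all 8 NOGGIN-labelled spots over both arrays were brighter than all 8 control-labelled spots, with no normalisation and with the dyes exchanged. For Id3 the margin was small, with 98452 in the lowest NOGGIN-labelled and 97394 in the highest control-labelled spot. The share of all probes with such a separation is not given here. Spots of a probe share their RNA and are not replicates.

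**Figure D1:**
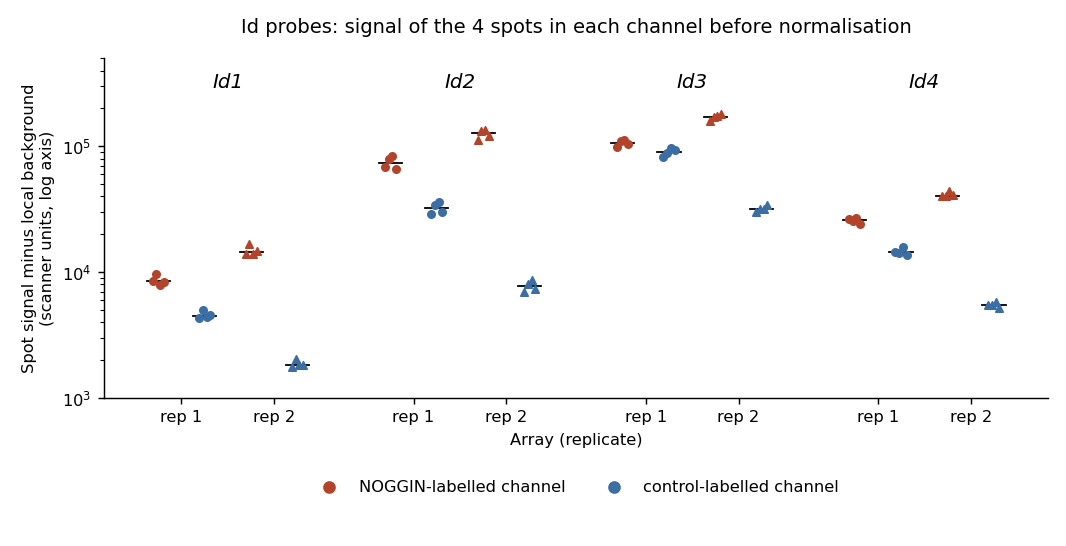
Signal minus local background (scanner units, log axis) of each spot of the Id probes on replicates 1 and 2, with the NOGGIN-labelled channel left of the control-labelled one. Circles are replicate 1 and triangles replicate 2, and bars are medians of 4 spots. For every gene all NOGGIN-labelled spots lie above all control-labelled spots, for Id3 by a small margin, and the gap is wider on replicate 2.

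The ratios were then normalised within each array. Before normalisation the NOGGIN-labelled signal was 1.89-fold (replicate 1) and 7.94-fold (replicate 2) the control-labelled signal for Id1, 2.29-fold and 16.1-fold for Id2, 1.17-fold and 5.36-fold for Id3, and 1.77-fold and 7.52-fold for Id4. The red channel was brighter over the whole array, and the median log2 ratio of all gene spots was -0.57 on replicate 1 and 0.58 on replicate 2 after background correction alone. After loess normalisation, which removes the dependence of the ratio on brightness within each array, the 2 arrays came closer for each Id gene.

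All 4 Id genes were higher in the NOGGIN-labelled channel on both arrays. Ratios are log2 of NOGGIN-labelled over control-labelled, following the dyes named in the labels. The authors' deposited table gives the opposite sign for each of them, so the direction is not settled by these data, and every "higher" and "lower" here turns round if that table holds NOGGIN over control. As background, BMP signalling raises Id genes and NOGGIN blocks it, and the direction by the labelled dyes goes against this. In the authors' deposited table the signed fold changes on replicates 1 and 2 are -2.82 and -5.67 for Id1, -4.19 and -10.5 for Id2, -2.48 and -3.19 for Id3, and -2.95 and -5.13 for Id4. Across the 26712 probes kept, the table's log2 values correlated with the label-oriented ratios of the same array at r = -0.955 on replicate 1 and r = -0.954 on replicate 2, so the whole table is turned, not only the Id genes. The 2 arrays had the same orientation as each other, with r = 0.702 across genes, which are not independent replicates.

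Id2, which in mice is needed for lymphoid and mammary development, had log2 ratios of 2.11 on replicate 1 and 3.34 on replicate 2. Its mean was 2.73 ± 0.87 (SD, n = 2), a 6.62-fold difference with a 95% interval of 4.04 to 10.9 and an adjusted p of 0.00975 in limma. It ranked first of the 21337 genes by mean log2 ratio, counted from the highest. With the sign turned, the ranks of all 4 members count from the lowest.

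Id1, which acts in vessel growth and stem cell maintenance, had log2 ratios of 1.54 on replicate 1 and 2.41 on replicate 2. The mean was 1.98 ± 0.62 (SD, n = 2), or 3.93-fold with a 95% interval of 2.73 to 5.67 (adjusted p = 0.0102, limma). It ranked 7 of all genes from the highest.

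Id4, best known from neural progenitors and spermatogonial stem cells, had log2 ratios of 1.57 on replicate 1 and 2.32 on replicate 2. The mean was 1.94 ± 0.53 (SD, n = 2), or 3.85-fold with a 95% interval of 2.79 to 5.31 (adjusted p = 0.00802, limma), at rank 8 from the highest.

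Id3, which acts with Id1 in vessels and restrains lymphocyte development, had log2 ratios of 1.30 on replicate 1 and 1.60 on replicate 2. The mean was 1.45 ± 0.21 (SD, n = 2), or 2.73-fold with a 95% interval of 2.30 to 3.25 (adjusted p = 0.00437, limma), at rank 29 from the highest. After loess it had the smallest ratio, the smallest spread between arrays and the smallest p of the family. With median centring in place of loess its ratio was still the smallest. Its SD of 0.73 then exceeded those of Id1 (0.63) and Id4 (0.65), and its adjusted p of 0.186 (limma) was the largest of the family.

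Of the 4 members 4 were thus called higher, against 7.97% of all genes tested called in either direction, 3.95% of all genes tested called higher in limma and 1.35% at least 1.5-fold higher on both arrays, a criterion which the 4 members also met. The members were chosen with earlier results of these data known, so this count is not independent support. The p-values rest on 1 residual degree of freedom for each gene and on 4.12 prior degrees of freedom from all genes. An exact sign-flip test on 2 arrays cannot give a two-sided p below 0.5. With median centring in place of loess, none of the 4 passed in limma: the adjusted p was 0.113 for Id1, 0.148 for Id2, 0.186 for Id3 and 0.12 for Id4, with unadjusted p between 0.00298 and 0.0149, and the log2 ratios were 1.92, 2.59, 1.32 and 1.85. In bulk RNA of whole ureters, fewer cells of a type and less RNA per cell cannot be told apart.

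**Figure D2:**
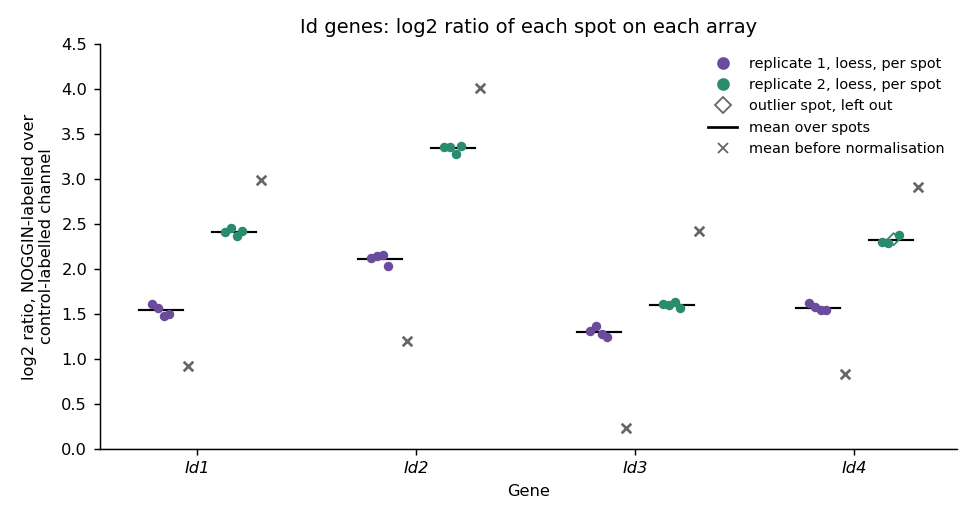
Log2 ratio of the NOGGIN-labelled over the control-labelled channel for each spot of each Id gene on replicates 1 and 2, after loess. Bars are means over spots, crosses the mean before normalisation, and a diamond the 1 outlier spot left out. Spots of an array lie close together, replicate 2 is higher than replicate 1 for each gene, and Id2 is highest on both arrays.

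Spots of a probe varied little within an array. The SD over spots of the log2 ratio lay between 0.026 (Id3, replicate 2) and 0.062 (Id1, replicate 1), where the median over all probes was 0.070 on replicate 1 and 0.062 on replicate 2. Of 32 Id spots 1 was flagged as an outlier, a spot of Id4 on replicate 2, and left out. The spread between the arrays was larger than that between spots for each member.

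All 4 genes had a larger ratio on replicate 2, by 0.88 for Id1, 1.22 for Id2, 0.30 for Id3 and 0.76 for Id4 on the log2 scale. The deviation of each array from the mean was 0.44, 0.61, 0.15 and 0.38 for these genes in the same order. That of Id2 was larger than in 99.8% of all genes tested, that of Id1 than in 99.5%, that of Id4 than in 99.2% and that of Id3 than in 87.2%. A larger size on replicate 2 was also common among other strongly changed genes: it held for 55 of 70 genes outside the family (78.6%) at least 2-fold higher on both arrays and 86 of 105 (81.9%) at least 2-fold lower, against 53.1% of all genes. The median difference was 0.15 among those 70 genes. Replicate and dye orientation change together between these arrays and cannot be told apart.

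Within the family, Id2 had the largest ratio and Id3 the smallest. The log2 ratio of Id2 was larger than that of Id3 by 0.81 on replicate 1 and 1.74 on replicate 2, than that of Id4 by 0.55 and 1.02, and than that of Id1 by 0.58 and 0.92. Id1 was above Id3 by 0.24 and 0.81, and Id4 above Id3 by 0.27 and 0.72. Each of these 5 mean differences exceeded its SD over the arrays and had 1 sign on both. Id1 and Id4 did not differ beyond their spread, with differences of -0.03 and 0.09. These are differences of ratios. Signals of different probes cannot be set against each other, so the order says nothing about which Id transcript is most abundant. With 2 arrays no p below 0.5 was possible for any pair by an exact test.

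**Figure D3:**
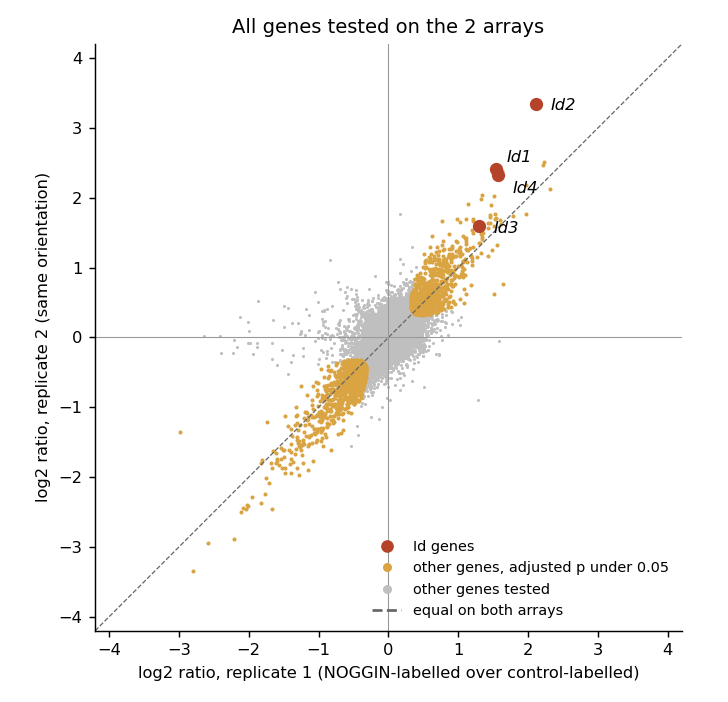
Log2 ratios (NOGGIN-labelled over control-labelled) of 21337 genes on replicate 1 (x axis) and replicate 2 (y axis), with genes past an adjusted p of 0.05 in limma in yellow and the Id genes in red. All 4 Id genes lie above the dashed line of equal ratios, with Id2 furthest from the origin among genes higher on both arrays.

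Genes outside the family most like each member were sought among those with a symbol, with predicted and clone names passed over. The measure was the Euclidean distance between log2 ratios over the 2 arrays, so the likeness rests on 2 points. Id1 and Id4 lay 0.096 from each other. The closest gene outside the family to both was Pparg, which encodes a nuclear receptor of lipid metabolism, with 1.63 on replicate 1 and 2.37 on replicate 2 at distances of 0.101 and 0.0821. Brinp3 (1.34 and 2.03) and Sct, the gene of the hormone secretin (1.32 and 1.99), came next for both. Distances were computed with the reported processing only. The mean of Brinp3 was 1.69 there but 2.15 with the authors' deposited table turned to the labelled dyes. Of genes with a symbol outside the family, 4 lay within 0.5 of Id1 and 5 within 0.5 of Id4.

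None lay within 0.5 of Id2. Its nearest were Smad9, which encodes a BMP-activated SMAD, with 2.23 on replicate 1 and 2.51 on replicate 2 at a distance of 0.834, then Npy1r, a neuropeptide Y receptor gene, with 2.20 and 2.47 at 0.871, and Pparg at 1.08. Id3 had 51 genes within 0.5. The nearest were Gdf5, a BMP family ligand gene (1.31 and 1.59, distance 0.0136), Fgfr3, a fibroblast growth factor receptor gene (1.35 and 1.5), and Hs3st1, a heparan sulfate sulfotransferase gene (1.21 and 1.67). The second probes of Gdf5 and Fgfr3 gave means of 1.2 and 1.11.

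Other target genes of BMP-SMAD signalling were mostly higher as well. This list and those below were chosen with earlier results of these data known, so their counts are not independent support. Of 16 in the list 15 were tested, and 11 of these were higher, 0 lower and 4 did not pass, against 3.95% of all genes higher and 4.03% lower. The median log2 ratio was 0.63, against 0.00083 for all genes tested, and 8 had ratios of at least 1.5-fold on both arrays. Besides Smad9 the largest were Nog, the gene of endogenous NOGGIN, at 1.42 on replicate 1 and 1.63 on replicate 2 (mean 1.53 ± 0.15, SD, n = 2; adjusted p = 0.00352, limma), Atoh8, a bHLH factor gene, at 1.2 and 1.54, and the homeobox gene Msx2 at 1.18 and 1.16. Hey1, Tmem100, Tbx2 and Tbx3 did not pass, with means of 0.20, -0.063, -0.17 and 0.31. Bambi, a decoy receptor gene, and Tbx20 counted among the 11 but were not well above background in the control-labelled channel on either array. The measured ratios of Bambi were 0.41 on replicate 1 and 0.85 on replicate 2, so it was not among the 8. As bounds on the mean of both arrays, Bambi was at least 1.5-fold higher (adjusted p = 0.0450) and Tbx20 at least 1.37-fold (adjusted p = 0.0130, limma). With both set to these bounds the median of the list was 0.59. These 2 passed the filter on dim probes only through the NOGGIN-labelled channel. Among the 13 targets above background in both channels, 9 were higher and 7 had ratios of at least 1.5-fold on both arrays.

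Id genes had larger ratios than most of these. Of the 11 other targets called, Smad9 alone exceeded Id1 and Id4, and Smad9 and Nog exceeded Id3. Smad9 is both a target and a transducer of the signal and was counted among the targets. Of the 9 other receptor and SMAD genes tested, 0 were called in limma, against 7.97% of all genes tested called in either direction. With so few genes a count of 0 lies near that share. Of the 9, 2 had an unadjusted p under 0.05. Their median log2 ratio was 0.042. The type I receptor genes Bmpr1a and Bmpr1b stood at 0.33 ± 0.14 and -0.39 ± 0.27, and Smad1, Smad5 and Smad4 at 0.12 ± 0.27, -0.15 ± 0.10 and 0.067 ± 0.16 (SD, n = 2). With the mean of each gene's probes 1 of the 9 was called.

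The E protein genes, whose products are the main partners of ID proteins, did not pass. Tcf3 stood at 0.034 on replicate 1 and -0.26 on replicate 2, Tcf4 at -0.24 and -0.29, and Tcf12 at 0.11 and -0.19. Of 3 genes tested 0 were called in limma and 1 had an unadjusted p under 0.05. Of all genes tested 7.97% were called in either direction, and with 3 genes a count of 0 lies near that share. Transcript ratios say nothing about how much E protein was bound to ID protein.

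Tissue-restricted bHLH genes, whose products pair with E proteins and are held off DNA when ID proteins take up the partner, went in both directions. Of 14 in the list 13 were tested, and 2 were higher, 5 lower and 6 did not pass, against 3.95% of all genes higher and 4.03% lower. The median was -0.0024. Scx, the gene of the tendon factor scleraxis, was the lowest at -1.51 on replicate 1 and -1.62 on replicate 2 (mean -1.57 ± 0.072, SD, n = 2; adjusted p = 0.00338, limma). Msc was lower at -0.69 and -0.72 (mean -0.71, but -1.44 with Agilent's processed signals and loess and -1.43 with the authors' deposited table turned to the labelled dyes). Bhlha15, a factor of secretory cells, was lower at -0.56 and -0.78 (mean -0.67, but -1.13 and -1.20 with the same 2 settings). Tcf21, a factor of kidney and ureter mesenchyme, was higher by 0.72 and 0.52 (adjusted p = 0.0189). Twist2 and Tcf15 were the other lower genes and Hand1 the other higher one, with means of -0.61, -0.38 and 0.56.

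Of 7 HES and HEY genes, bHLH repressors downstream of NOTCH some of which bind ID proteins, 1 was lower, 0 higher and 6 did not pass, against 4.03% of all genes lower and 3.95% higher. The lower one was Heyl, at -0.47 on replicate 1 and -0.66 on replicate 2 (adjusted p = 0.0228, limma), and it did not pass with the values of the authors' deposited table (adjusted p = 0.0551). Hes5 changed sign between the arrays, with 1.28 and -0.89, and its control-labelled signal cleared background on only 1 of 2 arrays. Other proteins that ID proteins bind are the retinoblastoma family, ETS factors of the ELK group and PAX factors. Of 8 such genes tested 0 were called in limma, near the 7.97% of all genes called in either direction. An unadjusted p under 0.05 was found for 4, and 1 was called in the separate-channel model. Rb1, Rbl1 and Rbl2 stood at 0.32 ± 0.21, 0.23 ± 0.11 and 0.33 ± 0.087 (SD, n = 2).

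E proteins switch on CDK inhibitor genes in several cell types, and ID proteins counter this. Of 7 such genes 1 was higher, 1 lower and 5 did not pass, against 7.97% of all genes called in either direction. Cdkn1a, which encodes the cell cycle inhibitor p21, was lower at -0.73 on replicate 1 and -1.0 on replicate 2 (mean -0.86 ± 0.19, SD, n = 2; adjusted p = 0.0108, limma), though its second, dimmer probe gave 0.073 and -0.082. Cdkn2c was higher by 0.45 and 0.60 (adjusted p = 0.0251). Cdkn2a and Cdkn2b, the loci of p16 and p15, changed sign between the arrays and did not pass.

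**Figure D4:**
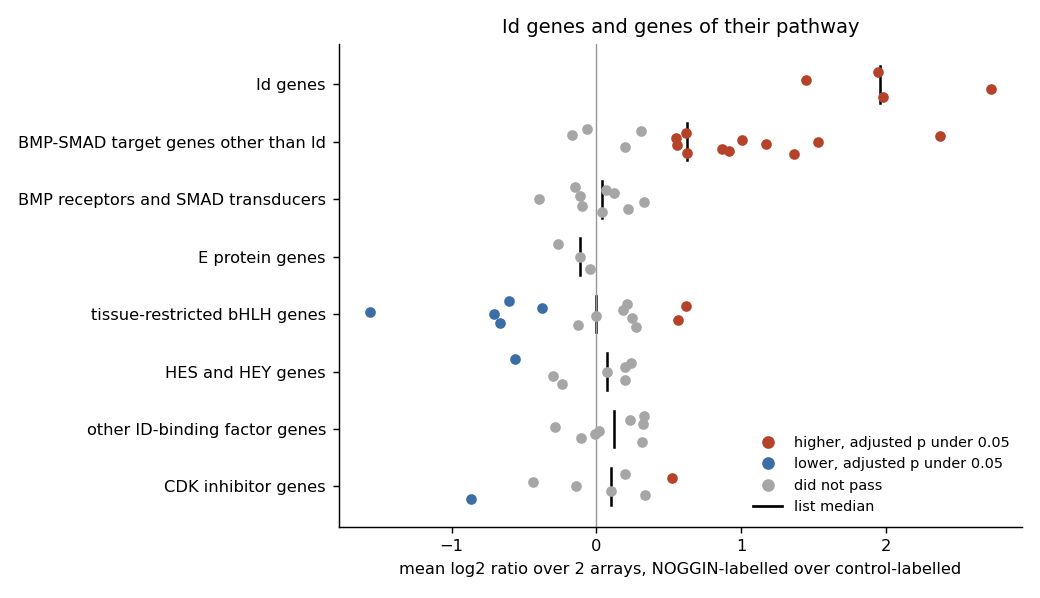
Mean log2 ratio (NOGGIN-labelled over control-labelled, 2 arrays) of each tested gene of 8 lists, with genes past an adjusted p of 0.05 in limma in red (higher) or blue (lower), the others in grey, and black bars at list medians. The 4 Id genes and 11 of 15 other BMP targets are higher (9 of 13 with Bambi and Tbx20 left out). None of the receptor and SMAD genes of the third row, which leaves out Smad9, and none of the E protein genes passed. For lists this short that lies near the 7.97% of all genes called in either direction.

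Markers of the cell types in the explant were checked because several of these types express Id genes. All 7 markers of ureteric mesenchyme and all 9 of urothelium passed the filter on dim probes. Among the mesenchyme markers 3 were higher and 2 lower. Of all genes tested 3.95% were higher and 4.03% lower, the shares to set beside every marker list here. Sox9 at 2.31 and 2.13 and Tbx18 at 1.06 and 1.45 were higher with Tcf21. Bmp4, the gene of the BMP that NOGGIN binds, at -1.48 and -1.12, and Ptch1 were lower. Of the urothelium markers 1 was higher, Upk2 at 0.77 and 0.45, and 8 did not pass. Endothelium is a known site of Id1 and Id3 expression, and 0 of 8 endothelial markers passed in limma (2 with an unadjusted p under 0.05), with a median of 0.12 and means from 0.015 to 0.34. Their summed normalised signal was 42873 and 50246 in the NOGGIN-labelled channels and 39607 and 44006 in the control-labelled channels. The sum of the ureteric mesenchyme markers was lower, at 201494 and 244171 against 307966 and 365338. Bmp4, the brightest of them (mean log2 signal 17.3, next Tcf21 at 15.5), weighs most in this sum and was itself lower. The median log2 ratio of the 7 markers was 0.0087, so the sum does not stand for the mesenchyme as a whole. The sum of the nerve and glia markers was higher, at 102501 and 91706 against 77074 and 85568. On both arrays the urothelium and the blood and macrophage sums were also higher, and the kidney sum was lower. Each of these sums is weighted in the same way to its brightest probes. Of 7 blood and macrophage and 6 nerve and glia markers 0 passed (2 and 3 with an unadjusted p under 0.05). No share of all genes is given at the unadjusted threshold for the reported processing. The unadjusted counts here and above therefore have nothing to be set against. Of 6 kidney markers 1, Foxd1, was lower at -0.66 and -0.94. The part of any cell type in the Id ratios was not tested.

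The Id ratios changed little with the processing, apart from the loess step. Over 12 ways of computing the ratio, Id1 lay between 1.47 and 1.59 on replicate 1 and between 2.37 and 2.5 on replicate 2. Id2 lay between 1.76 and 2.13 on replicate 1 and between 3.34 and 3.42 on replicate 2, and Id4 between 1.39 and 1.60 and between 2.30 and 2.36. Id3 moved most, between 0.80 and 1.35 on replicate 1 and between 1.59 and 1.84 on replicate 2, and its extremes of 0.80 and 1.84 both came from median centring. In all 12, Id2 had the largest and Id3 the smallest ratio of the family on both arrays. Quantile scaling of brightness between arrays and changes of the filter on dim probes could not move these ratios. Those settings therefore add nothing to the agreement, and keeping outlier spots moved only Id4 on replicate 2.

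**Figure D5:**
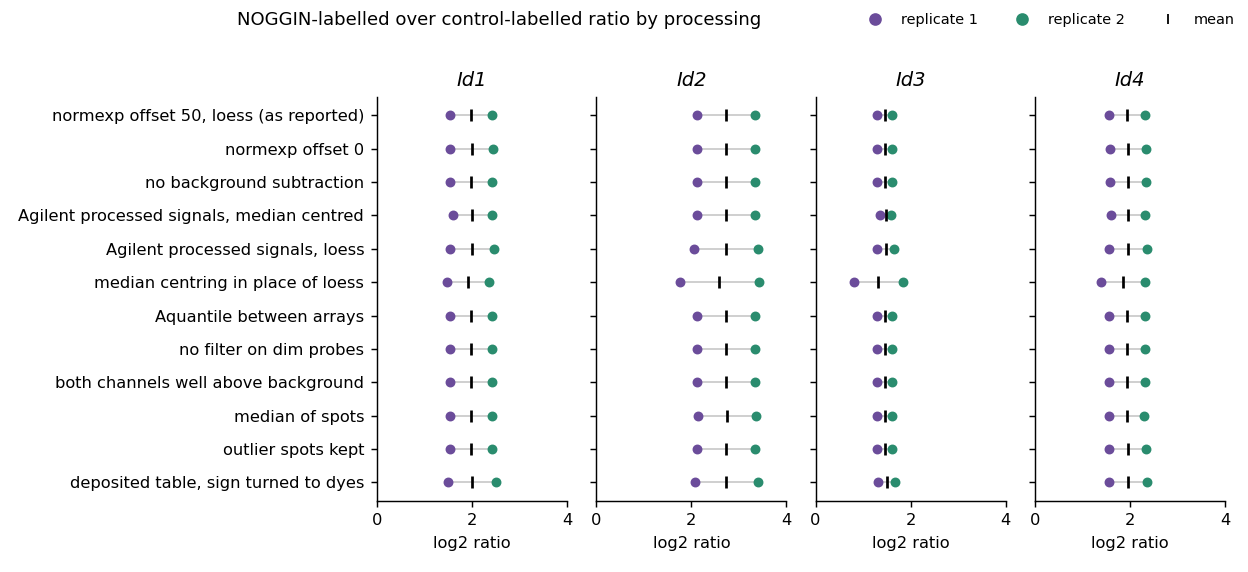
Log2 ratio (NOGGIN-labelled over control-labelled, x axis) of each Id gene on replicate 1, on replicate 2 and as their mean, under 12 ways of processing (rows). The values stay close together except with median centring in place of loess, where the arrays move apart, most of all for Id3 (0.80 and 1.84). The rows for scaling between arrays and for other filters on dim probes repeat the reported values by construction.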

How the data were processed

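Two-colour arrays of 2 NOGGIN-labelled and 2 control-labelled ureter samples were analysed. Per the labels, 200 ng of RNA was amplified in 1 round and labelled with a red or a green Alexa Fluor dye. The deposited scanner files hold linear intensity values of each spot. Per the submitters' processing notes the images were quantified in Agilent Feature Extraction (version 10.7.3.1), whose log10 ratio of red over green stands beside them in the deposited files. The authors' deposited table holds a score per probe and array, a signed fold change, whose normalisation and direction are not given in the sources used here. Both arrays lie on 1 slide.

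Background was corrected with normexp (offset 50), and each array was normalised by loess, with control, filler and outlier spots (3.69% of gene spots on each array) at weight 0. Spots were averaged. Probes were named through the RefSeq table of GRCm38.p6, which gave 28328 of 39429 probes a symbol. Of all probes 26712 were kept, those with over 0.5 of their spots well above background on each array in at least 1 condition, and the brightest probe stood for a gene. Log2 ratios were tested against 0 with limma 3.58.1 in R 4.3.3 (lmFit, eBayes, two-sided, Benjamini-Hochberg over 21337 genes, threshold 0.05). At probe level the adjusted p of the Id probes lay between 0.00314 and 0.00755. The number of arrays, 2, limits the precision.

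Named are the members, up to 4 genes past the threshold with the largest ratios in each list and the 3 nearest genes to each member, predicted and clone names passed over. Further genes were named after their values were seen. Members and lists were chosen with earlier results of these data known. Bounds compare the brighter channel with the lowest signal of probes well above background, after quantile scaling of brightness, averaged over both dye orientations. The fit was tested on simulated data.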

Additional observations from a re-analysis of the deposited data

How the results depend on the processing

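Each Id gene kept its sign and its call under all alternatives to the reported processing at the 0.05 threshold except median centring and the sign of the deposited table. With median centring in place of loess the calls ended, at 1.92 (adjusted p = 0.113) for Id1, 2.59 (0.148) for Id2, 1.32 (0.186) for Id3 and 1.85 (0.12) for Id4. At probe level the adjusted p was 0.106, 0.141, 0.177 and 0.112 there. The same setting called 0 genes higher and 0 lower in limma, with 3572 at an unadjusted p under 0.05, and so 0 in every gene list. In it, 195 genes moved by 1.5-fold or more with opposite sign on the 2 arrays, against 8 with loess. With the sign of the authors' deposited table the mean log2 values were -2.0 for Id1, -2.73 for Id2, -1.49 for Id3 and -1.96 for Id4. Apart from these, the adjusted p stayed between 0.00140 and 0.0305, the highest for Id2 with robust eBayes. Each array alone, with no residual degree of freedom and so no test, gave 1.54 to 2.41 for Id1, 2.11 to 3.34 for Id2, 1.30 to 1.60 for Id3 and 1.57 to 2.32 for Id4.

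At an adjusted p of 0.01, which Id1 (0.0102) would miss, 170 genes were higher and 208 lower, and at 0.1, 1368 and 1323. At 0.01 the calls were 6 among the other BMP targets, 2 among the tissue-restricted bHLH genes, and 0 each among HES and HEY genes and CDK inhibitors. At 0.1 they were 1 among receptors and SMADs, 1 among other ID-binding factors and 2 among HES and HEY genes. The HES and HEY list also had 2 with an intensity trend and 0 with the deposited table, the receptors and SMADs 1 with the mean of probes, and the other ID-binding factors 1 in the separate-channel model. Genes at least 1.5-fold higher on both arrays numbered 288, against 489 with Agilent's processed signals centred on the median, 484 with the same signals and loess, and 465 with the deposited table. Those lower numbered 330, against 500 with processed signals and loess. On 1 array alone 425 to 497 genes were higher and 523 to 590 lower, since 1 array is a weaker criterion. Of 345 tested values for 23 other named genes, 321 kept sign and call, 24 lost the call (23 of them with median centring) and 0 changed sign. On each array alone, with no test, all 46 values kept their sign. The reported test was itself paired, because each array sets 1 NOGGIN-labelled against 1 control-labelled sample in its ratio.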
